A study of Mus musculus with 6 samples.

Results

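The genes described here are 8 chemokine genes and 1 chemokine-binding receptor gene that blood myeloid cells are known to use: Ccl2, Ccl3, Ccl4, Ccl6, Ccl9, Cxcl2, Cxcl10, Cxcl16 and Ccrl2. They were taken by symbol from the gene column of the count matrices, 9 of 31253 genes, and each symbol was held by 1 gene. UMIs, the molecular tags that count single mRNA molecules, were summed per library over cells picked by marker genes, and the T2D and Con groups were compared. Con is male mice of 12 to 13 weeks injected with saline into the peritoneum, and T2D is male mice of the same age injected by the same route with streptozotocin (STZ), a toxin of pancreatic beta cells. The series title gives the diabetes model as high-fat diet with STZ. The sources used here name no diet for Con. Each group had 3 libraries of peripheral blood mononuclear cells, isolated on a density gradient with lysis of red cells, so the neutrophils described here are those that remained in that layer. Whether one library comes from 1 mouse or from several is left unsaid in the labels, and p-values thus read library-to-library spread, part of which may be technical.

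Chemokines are small secreted proteins that direct the movement of leukocytes along gradients by binding G protein-coupled receptors. CC chemokines such as CCL2 mainly attract monocytes and lymphocytes, and the CXC chemokine CXCL2 attracts neutrophils through CXCR2. Several of these genes are switched on within a short time by inflammatory signals through the transcription factor NF-kB, whose inhibitors, such as Nfkbia and Tnfaip3, are themselves induced by it. CCRL2 is an atypical receptor: it is not known to signal for migration, and it binds the attractant chemerin at the cell surface.

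The 6 libraries held 23574052 to 32321855 UMIs, and 47266 cells were kept (7118 to 8623 per library, median 2788 to 3202 UMIs per cell). Any 2 libraries shared 65 to 89 cell barcodes. A cell was gated when it showed at least 3 genes of its own marker list and at most 1 of every other list, except between T and NK cells. T cells could show any number of NK markers. NK cells could show at most 1 of Cd3d, Cd3g and Trac and any number of the other T markers. This strict gate gave 807 monocytes (85 to 192 per library), 746 neutrophils (51 to 185, the lowest in Con 3) and 34585 lymphocytes, made up of 22333 B, 11309 T and 943 NK cells. Monocytes were split into 181 classical cells, led by genes such as Ly6c2 and F13a1, and 606 non-classical cells. The gate fixes which markers its cells show, so their levels only describe it: the summed neutrophil markers stood at 22610 to 30420 CPM, the UMIs of a gene or list per 1000000 UMIs of the class, in gated neutrophils and at 150 to 236 in gated monocytes. Monocyte markers stood at 142 to 272 CPM in gated neutrophils and 8550 to 9697 in gated monocytes. The strict gate left out many cells with these genes: 72.2% to 88.9% of a library's Ccl2 UMIs and 52.4% to 64.9% of its Ccrl2 UMIs lay in cells outside it. A wider gate, chosen after the data were seen, kept the need for 3 own genes and the limit on eosinophil, basophil, dendritic cell and platelet lists. For the other lists it asked instead that the own list lead each by at least 2 genes. Between T and NK cells the rule above was kept. The wider gate left Csf3r, Mmp8 and Cd177, which many monocytes also showed, out of the neutrophil list. It held 776 classical monocytes of 5855 to 6947.5 median UMIs, against 1198 to 4259 in the strict gate, and is given beside the strict gate for the members whose call differs and for the gene lists where named.

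In the GRCm38 (mm10) annotation of GENCODE vM21, Cxcl16 (chr11:70453983-70459984) and Ccl2 (chr11:82035571-82037453) lie on chromosome 11. Further along that chromosome Ccl9 (chr11:83572919-83578636), Ccl6 (chr11:83587882-83593087), Ccl3 (chr11:83647844-83649355) and Ccl4 (chr11:83662584-83664683) lie close together. Cxcl2 (chr5:90903871-90905938) and Cxcl10 (chr5:92346638-92348889) lie on chromosome 5 and Ccrl2 (chr9:111054486-111057519) on chromosome 9. Genes on the opposite strand overlap Ccl2 (Gm17268), Ccl6 (E230016K23Rik), Cxcl10 (Art3) and Cxcl16 (Zmynd15). How strand was treated in counting is not stated in these sources, and the UMIs of such pairs cannot be told apart.

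The stretches before the start sites of Ccrl2, Cxcl2 and Ccl3 are printed because the neutrophil results below describe these genes beside genes of the NF-kB pathway. Of the printed genes only Ccrl2 passed the test there, and the part of NF-kB in their levels was not tested. They are from RefSeq (GRCm38.p6), 5′ to 3′ on the gene's own strand, and end before the gene's most upstream start in the RefSeq table, or before the GENCODE start where that lies further upstream. Capitals mark matches to the NF-kB consensus, searched on both strands. Ccrl2 is chr9:111057520-111057768 (minus strand), Cxcl2 chr5:90903649-90903870 (plus strand) and Ccl3 chr11:83649379-83649628 (minus strand).
Ccrl2: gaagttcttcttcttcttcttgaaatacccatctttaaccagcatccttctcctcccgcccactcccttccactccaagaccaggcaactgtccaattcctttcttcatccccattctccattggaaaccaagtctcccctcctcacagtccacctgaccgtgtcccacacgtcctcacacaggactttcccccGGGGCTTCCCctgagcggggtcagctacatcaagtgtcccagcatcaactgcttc
Cxcl2: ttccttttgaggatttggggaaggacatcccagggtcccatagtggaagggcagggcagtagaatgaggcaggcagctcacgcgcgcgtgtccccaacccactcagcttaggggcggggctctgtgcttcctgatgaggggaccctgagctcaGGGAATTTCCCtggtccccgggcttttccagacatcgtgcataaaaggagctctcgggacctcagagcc
Ccl3: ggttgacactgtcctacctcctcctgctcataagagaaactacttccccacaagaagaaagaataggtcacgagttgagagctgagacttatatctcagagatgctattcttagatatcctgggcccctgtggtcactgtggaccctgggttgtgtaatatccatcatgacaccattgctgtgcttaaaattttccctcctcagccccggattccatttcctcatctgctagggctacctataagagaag
Ccrl2 held 1 match, which begins 55 bases before the end of the stretch. Cxcl2 held 2 overlapping matches, which begin 69 and 68 bases before the end. Ccl3 held none. Of the 6 genes of the set found in the promoter table, Ccl9 (1 match) and Cxcl10 (2 matches) also held the consensus, and Ccl6 did not. Over all 32851 promoter stretches of 250 bases, 3.9% held it. A match is a run of letters and was not tested as a binding site.

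Each gene had its own pattern over cell classes, and no class held the highest level of all 9. Cxcl2, a neutrophil attractant, was at 13256 CPM ± 3163 (SD, n = 3) in Con neutrophils, against 1333 ± 687 in classical and 240 ± 167 in non-classical monocytes. Ccl6, a myeloid CC chemokine, stood at 3052 ± 505 CPM in Con neutrophils, 1586 ± 256 in classical and 738 ± 62.7 in non-classical monocytes. The 6 library values of each of these genes in neutrophils lay above all 6 in classical monocytes. Ccrl2 was likewise highest in Con neutrophils, at 1519 ± 416 CPM, and its classical and non-classical monocyte levels (470 ± 213 and 490 ± 140) did not differ beyond their spread.

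Ccl9, a relative of Ccl6 beside it on chromosome 11, was read in monocytes and hardly in neutrophils. Its Con level was 981 ± 356 CPM in classical monocytes, 300 ± 30.5 in non-classical monocytes and 31.6 ± 18.7 in neutrophils. Ccl2, the main ligand of CCR2, had its highest group means in classical monocytes, at 56.8 ± 39.5 CPM in Con and 205 ± 24.5 in T2D. In neutrophils it stood at 21.2 ± 26.2 and 44.8 ± 47.8 CPM, and in non-classical monocytes at 10.6 ± 10.5 and 4.5 ± 4.51. The Con values of these classes overlap. Neutrophils, with more UMIs in all, held more Ccl2 UMIs than classical monocytes in Con 2 (23 against 10) and T2D 3 (28 against 13). In CPM classical monocytes were higher in both, at 90.3 against 50.5 in Con 2 and 184 against 95.1 in T2D 3. Cxcl10, an interferon-induced ligand of CXCR3, had Con means of 215 ± 213 CPM in classical monocytes, 49.5 ± 44.6 in non-classical monocytes and 17.2 ± 17.6 in neutrophils, with spreads about as wide as the means. Cxcl16, a membrane-bound ligand of CXCR6 that also takes up oxidised lipoprotein, was low throughout, with Con means of 22.9 ± 14.8 CPM in classical monocytes and 4.22 ± 0.92 in B cells. Neutrophils of 5 libraries had 0 Cxcl16 UMIs, which allows up to 9.07 to 26.6 CPM (3 UMIs of the library's class total).

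Ccl3 and Ccl4, neighbouring genes of inflammatory CC chemokines, were as high in NK cells as in any myeloid class. Ccl3 stood at 1035 ± 280 CPM in Con NK cells, 887 ± 480 in neutrophils and 515 ± 302 in classical monocytes, which overlap. Ccl4 stood at 1230 ± 460 CPM in Con NK cells, 207 ± 144 in neutrophils and 137 ± 85.1 in classical monocytes. Of 943 NK cells, 593 had a Ccl3 UMI and 592 a Ccl4 UMI, and 418 had both. In neutrophils 244 of 746 cells had Ccl3, 105 had Ccl4 and 63 had both, so 60% of the Ccl4-positive cells also had Ccl3, against 32.7% of all neutrophils. Free RNA, which was not measured here, can give UMIs in cells that do not express a gene. For reference, 3.3% ± 1.23 of Con B cells had a Ccl3 UMI and 7.66% ± 4.02 a Cxcl2 UMI, at a median of 2558 to 2707 UMIs per cell.

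**Figure D1:**
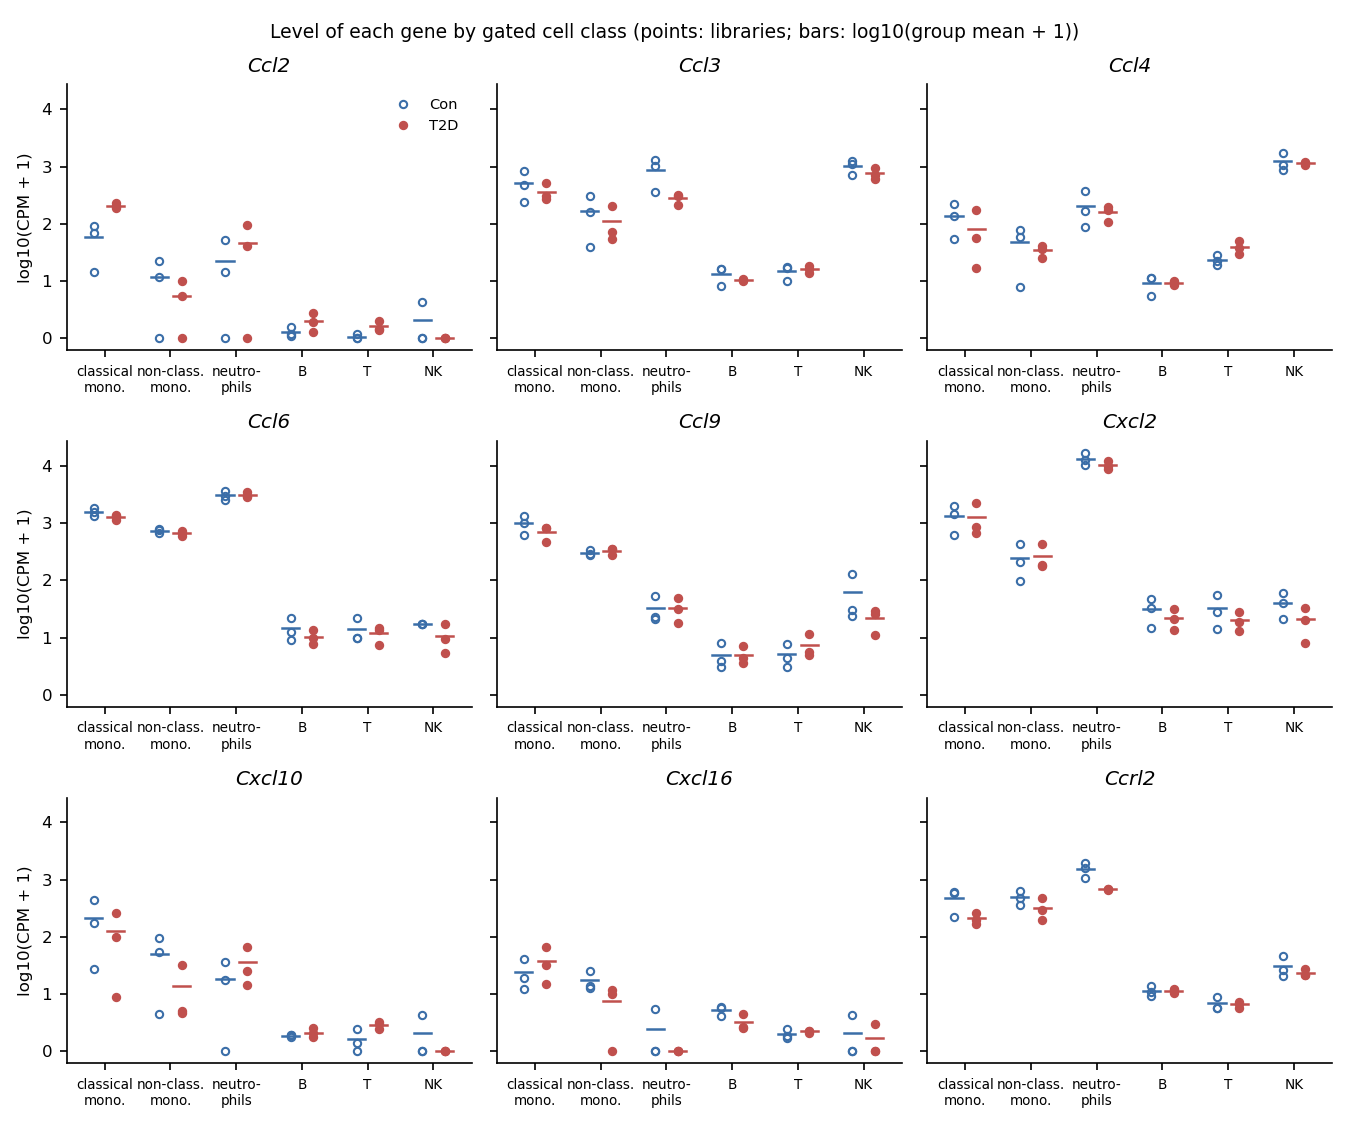
Level of each of the 9 genes as log10(CPM + 1) (vertical axis) in 6 cell classes of the strict gate (horizontal axis), with open blue points for the 3 Con and filled red points for the 3 T2D libraries and bars at the group means. Cxcl2, Ccl6 and Ccrl2 are highest in neutrophils, Ccl9 and Ccl2 in classical monocytes, and Ccl4 in NK cells.

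Likeness was measured as Pearson's r of log2(CPM + 10) over 36 sums (6 libraries by 6 classes) among genes with a mean of at least 20 CPM. It mainly reads differences between cell classes, and the sums of a library share its depth. The nearest genes were Hp, Ifitm2 and Msrb1 for Ccl6 (r 0.99 each), Clec4e, Pim1 (0.98 each) and Msrb1 (0.97) for Ccrl2, and Cebpd, Bst1 and Tnfaip2 (0.97 each) for Cxcl2. They were Capza2 (0.95), Tifab and Psap (0.94 each) for Ccl9, Anxa2 (0.91), Actb (0.89) and Itgam (0.88) for Ccl3, and Prex1 (0.9), Slc25a24 (0.89) and Acot7 (0.87) for Ccl4. For Cxcl16 they were Tmem176b, Tppp3 and Aif1 (0.87 each), for Ccl2 AI839979 (0.84), F13a1 (0.81) and Thbs1 (0.8), and for Cxcl10 Gm9733, Asap1 and Tnf (0.8 each). F13a1 is itself a marker of the monocyte gate and of the classical split, so the gating partly sets its pattern over classes.

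The main question was whether these genes differed between T2D and Con within a cell class. In gated neutrophils Ccrl2 fell, the other members tested did not pass, and 11 genes of an NF-kB and inflammatory list fell with it. The members and all gene lists were chosen with earlier results of these data known, so their counts only describe these data. Tests were edgeR's quasi-likelihood test on the sums, with Benjamini-Hochberg adjustment over all genes tested in a class and a threshold of 0.05. In neutrophils 1 of 6 members tested passed, beside 3.22% of all 3478 genes, and the members' median log2 fold change was −0.43 against 0.00285 for all genes. Ccl9, Cxcl10 and Cxcl16 were too low there to be tested.

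Ccrl2, the non-signalling chemerin receptor, stood at 1570, 1907 and 1080 CPM in neutrophils of Con 1, 2 and 3. In T2D 1, 2 and 3 it stood at 654, 692 and 683 CPM. All T2D libraries lay below all Con libraries, and the T2D values lay close together. Groups did not overlap, in either direction, for 16.6% of all genes in neutrophils. The log2 fold change was −1.21 ± 0.17 (SE; 95% interval −1.56 to −0.86; edgeR adjusted p = 1.888e-05). With no marker of any other list allowed it was −1.52 with adjusted p = 0.0789. The share of neutrophils with a Ccrl2 UMI, after each cell was thinned to 500 UMIs, was 39.7% ± 12.5 in Con and 24.7% ± 3.9 in T2D (two-sided exact permutation p = 0.2; 66.7% and 47.1% unthinned). In B cells, given for reference, it was 0.426% ± 0.116 and 0.55% ± 0.159.

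Ccl3, an inflammatory CC chemokine, stood at 1284, 1023 and 354 CPM in neutrophils of Con 1, 2 and 3 and at 211, 314 and 306 CPM in T2D. The groups did not overlap, as for 16.6% of all genes in neutrophils, but Con 3 lay near the T2D libraries. The log2 fold change of −1.74 ± 0.52 did not pass edgeR's test (adjusted p = 0.291). Con 3 held 51 neutrophils, and without it Ccl3 gave −2.06 with adjusted p = 3.703e-12, and DESeq2 on all libraries gave −1.7 with adjusted p = 0.0468. Without the filter on low counts edgeR's adjusted p for Ccl3 was 0.00707. In the wider gate the groups overlapped. The share of neutrophils with a Ccl3 UMI was 40.1% ± 12.7 in Con and 20.2% ± 3.12 in T2D, and 25.5% ± 11.8 and 9.87% ± 2.39 after thinning (two-sided exact permutation p = 0.1 and 0.2).

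Cxcl2 stood at 16696, 12600 and 10474 CPM in neutrophils of the Con libraries and at 9959, 12066 and 8762 in T2D, where T2D 2 lay within the Con range. Its log2 fold change was −0.39 ± 0.16 (edgeR adjusted p = 0.301), and without Con 3 it was −0.53 with adjusted p = 0.0412. In the wider gate Cxcl2 did not overlap, as for 16% of all genes there, at 13013 ± 1764 and 9937 ± 765 CPM, and did not pass (−0.41 ± 0.15, edgeR adjusted p = 0.2). The share of neutrophils with a Cxcl2 UMI was 83.3% ± 1.42 in Con and 74.7% ± 5.32 in T2D after thinning (two-sided exact permutation p = 0.1, the smallest that 3 against 3 allows), and 90% ± 3.6 and 84.2% ± 5.25 before it. The values of Ccl6 overlapped, 3052 ± 505 CPM in Con and 3065 ± 317 in T2D, with a log2 fold change of −0.01 ± 0.15. Ccl4, at 207 ± 144 and 158 ± 47.4 CPM, and Ccl2, at 21.2 ± 26.2 and 44.8 ± 47.8 CPM, overlapped between groups. Con 3 and T2D 1 had 0 Ccl2 UMIs there, which allows up to 26.6 and 16.6 CPM.

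**Figure D2:**
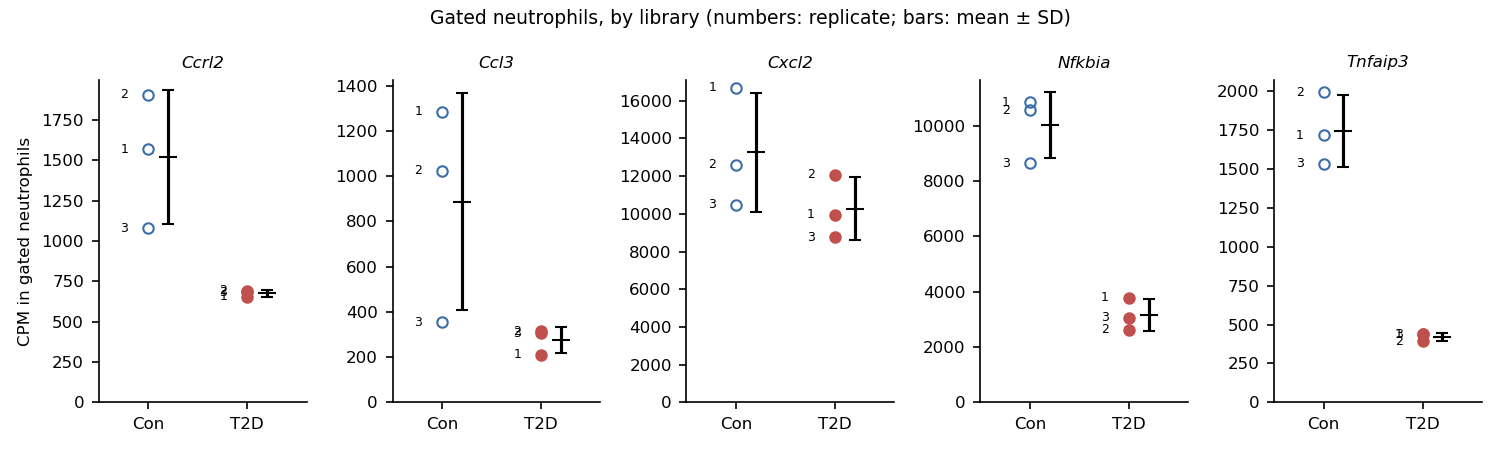
CPM in gated neutrophils (vertical axes, from 0) of Ccrl2, Ccl3, Cxcl2 and the NF-kB inhibitors Nfkbia and Tnfaip3, by group (horizontal axis), with 1 numbered point per library and bars for the mean ± SD. Ccrl2, Nfkbia and Tnfaip3 are lower in every T2D library than in every Con library, while Cxcl2 overlaps.

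The NF-kB and inflammatory list holds 20 genes, and 18 were tested in neutrophils. None rose and 11 fell, beside 2.42% of all genes that fell there, and the list's median log2 fold change was −1.12. Because the list was chosen with earlier results of these data known, the count is a description and not an independent test. The list's genes of smallest adjusted p were Tnfaip3, Nfkbia, relatives of Nfkbia and a subunit gene. Tnfaip3, a ubiquitin-editing brake on NF-kB, went from 1715, 1991 and 1532 CPM in Con to 438, 393 and 438 in T2D (log2 fold change −2.08 ± 0.16, edgeR adjusted p = 1.738e-11). Nfkbia, which holds NF-kB in the cytoplasm, went from 10846, 10556 and 8641 CPM to 3787, 2623 and 3061 (−1.69 ± 0.16, adjusted p = 2.975e-09). All T2D values of both genes lay far below all Con values, where 16.6% of all genes in neutrophils did not overlap in either direction.

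Nfkbiz, Nfkbid and Nfkbie, relatives of Nfkbia, fell by 1.55, 1.33 and 2.35 on the log2 scale, and the subunit gene Rel fell by 1.08. The other 5 genes that passed, picked out after their values were seen, were Tnf, Icam1, Sod2, Ptgs2 and Plaur, which fell by 2.00, 1.86, 1.16, 0.87 and 0.75. Without Con 1, without Con 2 or without T2D 3 the count was 7 of 19, and with any other library left out it was 10 or 11. With the wider gate it was 9 of 19. Genes known to respond to cell handling moved beside these: of 14 such immediate early genes, 12 were tested and Nr4a1 (1874 ± 342 to 629 ± 147 CPM, −1.60 ± 0.17) and Ier3 (291 ± 59.1 to 160 ± 23.5 CPM, −0.95 ± 0.21) fell. That count was 6 of 12 without Con 3 and 1 of 12 without Con 1 or T2D 2. The median mitochondrial share of a library's neutrophils was 0.226% to 0.345% in Con and 0.349% to 0.394% in T2D. Red cell markers summed to 233 to 2263 CPM in Con and 401 to 882 in T2D neutrophils. The part of these in the Ccrl2 result was not tested. Cxcr1, a receptor for CXC chemokines, rose from 9.87 ± 9.88 to 54.1 ± 9.55 CPM (1.98 ± 0.52, adjusted p = 0.0219), the only one of 5 receptor genes tested to pass, beside 0.805% of all genes that rose, and not without Con 1, T2D 2 or T2D 3.

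**Figure D3:**
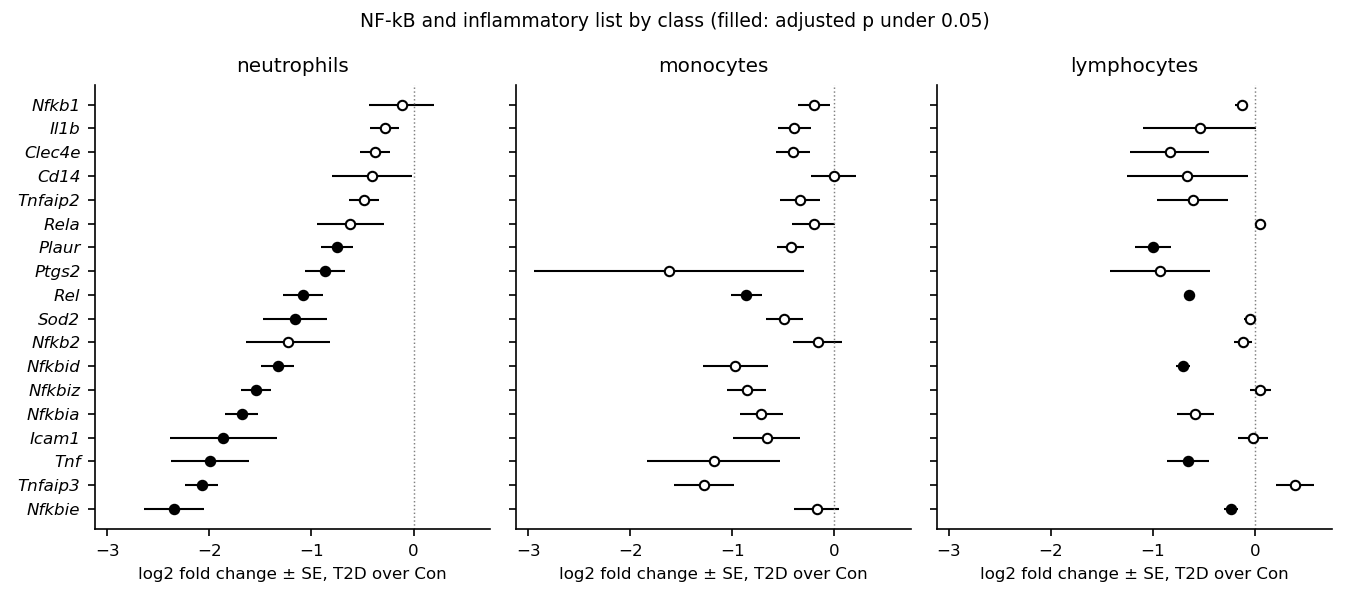
Log2 fold change of T2D over Con ± SE (horizontal axes) for the 18 genes of the NF-kB and inflammatory list tested in neutrophils (vertical axis), in neutrophils, monocytes and lymphocytes, filled where the adjusted p is under 0.05. In neutrophils 11 points are filled, all below 0.

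In gated monocytes as a whole no member passed the test: 0 of 8 tested, beside 0.377% of all 5836 genes, and none of the 7 that DESeq2 gave an adjusted p. An unadjusted p under 0.05 was reached by 427 genes, among them Ccl6. Ccl6 stood at 847, 1023 and 1009 CPM in Con and at 813, 803 and 688 in T2D. These values did not overlap, as for 12.3% of all genes in monocytes, but the T2D libraries lay close under Con 1 (log2 fold change −0.33 ± 0.12, adjusted p = 0.428). Ccrl2, at 486 ± 152 and 303 ± 121 CPM, gave −0.74 ± 0.40 (adjusted p = 0.793) with overlapping groups. Ccl9 (471 ± 91.1 and 398 ± 32.3 CPM), Cxcl2 (517 ± 270 and 479 ± 342), Ccl3 (240 ± 147 and 157 ± 99.3), Ccl4 (66.5 ± 43.9 and 44.3 ± 23.8) and Cxcl10 (85.9 ± 72.2 and 42.6 ± 42.5) all overlapped between groups. Few cells carried some of these: in each library 50.8% to 90.7% of the Cxcl2 UMIs in monocytes came from 10 cells. Of the NF-kB list 1 of 19 genes tested fell in monocytes, the subunit gene Rel (509 ± 58.8 to 277 ± 70.3 CPM, −0.86 ± 0.15), beside 0.274% of all genes that fell. It was 5 of 19 without T2D 1 and 2 of 19 without Con 1 or Con 3, as in the wider gate. Of the immediate early genes Nr4a1 and Junb fell by 0.62 and 0.69 on the log2 scale, 2 of 12 tested (3 without Con 3 or T2D 1, and 1 without Con 1, Con 2 or T2D 3). The wider gate gave 0 of 14.

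**Figure D4:**
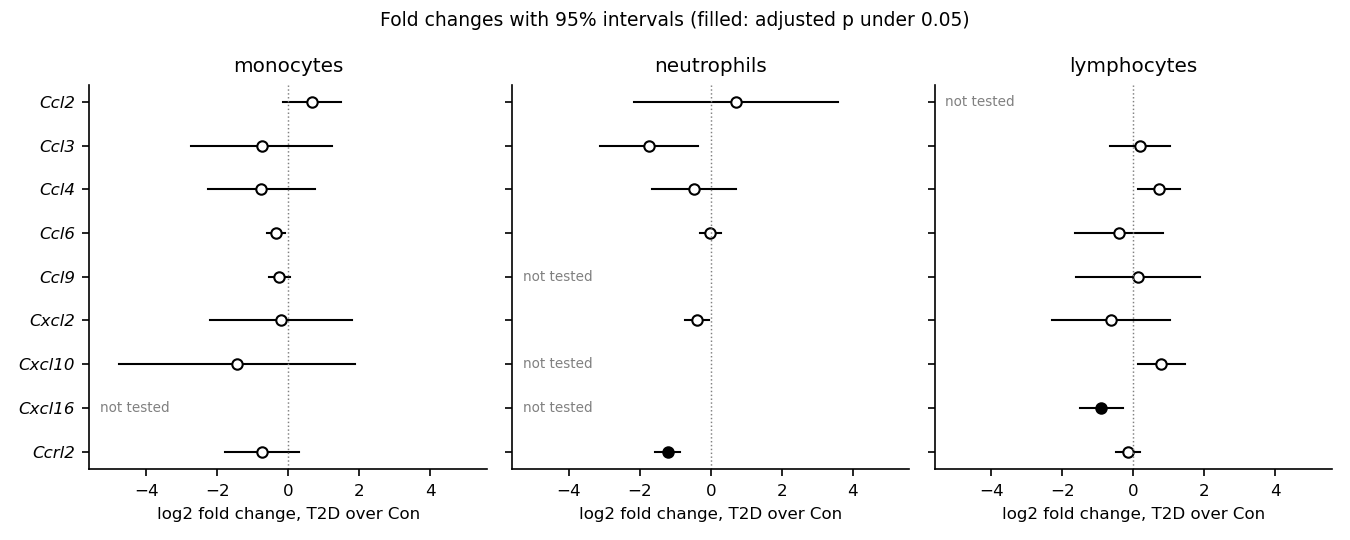
Log2 fold change of T2D over Con (horizontal axes) with 95% intervals for the 9 genes (vertical axis) in gated monocytes, neutrophils and lymphocytes, filled where the adjusted p is under 0.05. Only Ccrl2 in neutrophils and Cxcl16 in lymphocytes are filled.

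Within classical monocytes of the strict gate 2 of 8 members tested passed, beside 1.4% of all 1716 genes: Ccl2 rose and Ccrl2 fell. Ccl2, the CCR2 ligand that attracts monocytes, stood at 66.9, 90.3 and 13.2 CPM in Con and at 232, 200 and 184 CPM in T2D. The groups did not overlap, as for 13.7% of all genes tested there, and the lowest value, in Con 3, rested on 1 UMI. All counts were small, 1 to 10 UMIs per Con library and 13 to 25 per T2D library, from 20 to 55 cells. The log2 fold change was 1.76 ± 0.46 (edgeR adjusted p = 0.0153). It passed in none of the fits without Con 3, T2D 1, T2D 2 or T2D 3 (adjusted p = 0.0652 to 0.241), nor with DESeq2 (adjusted p = 0.31) or without the filter on low counts (0.0771).

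The wider gate gave Ccl2 more UMIs and the same direction. In its classical monocytes Ccl2 stood at 76.8, 59.1 and 41.5 CPM in Con (63, 55 and 27 UMIs) and at 116, 238 and 260 CPM in T2D (66, 290 and 186 UMIs). The groups again did not overlap, as for 13.5% of all genes there, with T2D 1 the lowest of T2D. The log2 fold change there was 1.79 ± 0.34 and did not pass (edgeR adjusted p = 0.109), where 0.736% of all genes did. Ccl2 passed there with DESeq2 (adjusted p = 0.00593), and without T2D 1 edgeR gave 2.03 with adjusted p = 1.85e-11. In all monocytes of the wider gate Ccl2 went from 36.4 ± 7.9 to 97.9 ± 25.5 CPM, a log2 fold change of 1.44 ± 0.20 that passed (edgeR adjusted p = 0.00563, beside 0.29% of all genes) with every library left out in turn (adjusted p at most 0.0455). The share of wider-gate classical monocytes with a Ccl2 UMI was 17.6% ± 3.08 in Con and 39.5% ± 7.63 in T2D, and 1.49% ± 1.29 and 7.56% ± 2.19 after thinning (two-sided exact permutation p = 0.1 each, the smallest that 3 against 3 allows). In B cells of that gate it was 0.0752% ± 0.0536 and 0.271% ± 0.204. Ccl2 was also higher in T2D means of lymphocytes of that gate, at far lower levels. It stood at 0.228 ± 0.149 and 0.841 ± 0.481 CPM in all lymphocytes, which overlapped, and at 0.133 ± 0.0172 and 0.692 ± 0.214 CPM in T cells. The part of free RNA in these values was not tested. Immediate early genes moved beside Ccl2 in classical monocytes: 4 of 12 rose in the wider gate and 0 fell, beside 29 of all 7062 genes that rose. Among the 4 was Fos, from 2344 ± 108 to 3760 ± 49.7 CPM (0.68 ± 0.096). In the strict gate 2 rose (Fos by 0.69, Atf3 by 0.78) and Nr4a1 fell by 0.58, beside 12 of all 1716 genes that rose and 12 that fell. Their part in the Ccl2 result was not tested. In non-classical monocytes of the wider gate Ccl2 was at 9.71 ± 5.55 and 16.9 ± 11.7 CPM (0.31 ± 0.47, adjusted p = 0.924).

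**Figure D5:**
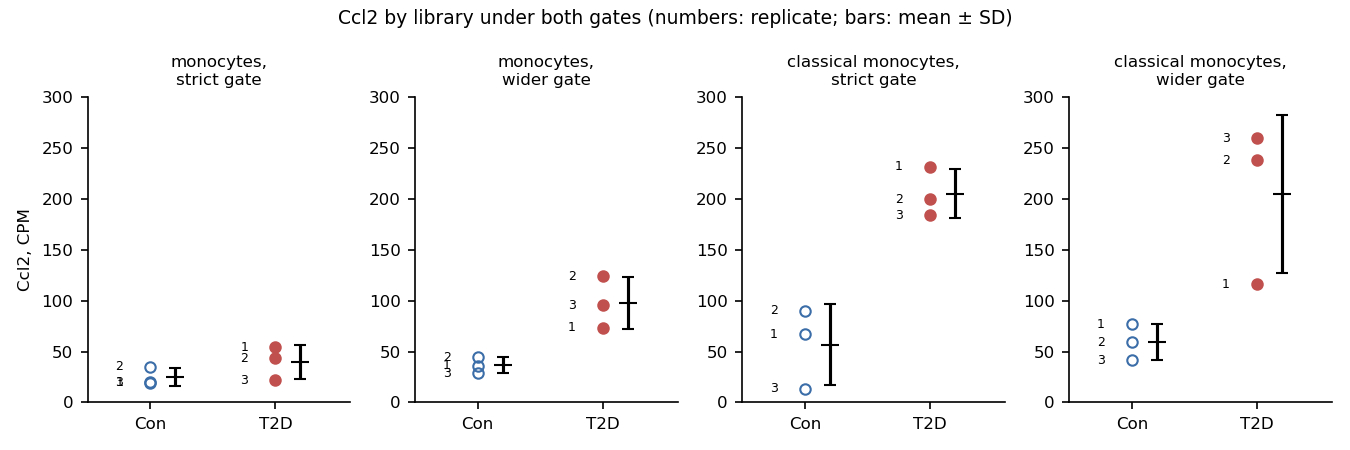
Ccl2 in CPM (vertical axes, from 0) by group (horizontal axes) in all monocytes and in classical monocytes, under the strict and the wider gate, with 1 numbered point per library and bars for the mean ± SD. T2D libraries lie above Con libraries in every panel but that of all monocytes under the strict gate, where they overlap.

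Ccrl2 in classical monocytes of the strict gate stood at 580, 605 and 225 CPM in Con and 263, 192 and 169 in T2D, so that Con 3 lay within the T2D range. Its log2 fold change of −1.19 ± 0.29 passed (edgeR adjusted p = 0.00866) but not without Con 1, Con 2, T2D 2 or T2D 3 (adjusted p = 0.118 to 0.319), with DESeq2 (0.432) or with at least 4 gate markers (0.0566). The other members tested in classical monocytes overlapped between groups: Ccl6 (1586 ± 256 and 1281 ± 120 CPM), Cxcl2 (1333 ± 687 and 1258 ± 856), Ccl9 (981 ± 356 and 698 ± 201), Ccl3 (515 ± 302 and 361 ± 130), Cxcl10 (215 ± 213 and 123 ± 129) and Ccl4 (137 ± 85.1 and 80.8 ± 79.8). In the wider gate Ccrl2 was −0.60 ± 0.39 (adjusted p = 0.803), with 518 ± 144 and 350 ± 133 CPM. Without T2D 1 that gate also gave calls for Ccl3 (−0.93, edgeR adjusted p = 2.34e-05) and Cxcl2 (−0.61, 0.00208). Of the NF-kB list 5 of 15 genes tested fell in classical monocytes of the strict gate, beside 12 of all 1716 genes. These were Tnfaip3 by 1.34, Nfkbia by 0.99, Nfkbiz by 1.26, Rel by 1.13 and Sod2 by 1.52 on the log2 scale. With the wider gate 2 of 19 fell, Rel by 1.14 and Sod2 by 1.10, beside 23 of all 7062 genes. In non-classical monocytes 0 of 7 members tested passed, beside 0.608% of all genes (354 genes had an unadjusted p under 0.05, none of them a member, and DESeq2 called 0 of the 5 members it gave an adjusted p). Ccrl2 there stood at 490 ± 140 and 318 ± 141 CPM (−0.69 ± 0.37, adjusted p = 0.841). Without T2D 1 it gave −1.01 with adjusted p = 0.00144. Cxcl10 stood at 49.5 ± 44.6 and 13 ± 15.9 CPM (−2.58 ± 1.13, adjusted p = 0.769). Without Con 3, where Cxcl10 was at 3.49 CPM, it gave −3.11 with adjusted p = 0.0001375. Without the filter on low counts Ccrl2 and Cxcl10 both passed in non-classical monocytes (adjusted p = 0.0276 and 0.00277). Cxcl16, too low to be tested, stood at 12.9, 11.6 and 24.5 CPM in Con and at 8.97 and 10.8 CPM in T2D 1 and T2D 2. Its T2D 3 library had 0 UMIs, which allows up to 6.0 CPM.

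In lymphocytes 1 of 8 members tested passed, beside 15.3% of all 12691 genes. The make-up of this summed class moved too: B cells were 54% ± 2.2 of the cells kept in Con and 41.1% ± 4.6 in T2D, T cells 18.4% ± 3.2 and 29% ± 3.5, and NK cells 1.37% ± 0.1 and 2.57% ± 0.61 (two-sided exact permutation p = 0.1 each). The part of this shift in the results on the summed class was not tested beyond the values within each class. Cxcl16, the CXCR6 ligand, stood at 3.74, 3.39 and 2.34 CPM in Con and 2.4, 1.41 and 1.31 in T2D, with T2D 1 just above Con 3. It fell by 0.90 ± 0.28 on the log2 scale (edgeR adjusted p = 0.045), and not past the threshold in the wider gate (0.0596), with no marker of any other list allowed (0.0859) or without Con 1, Con 2, T2D 2 or T2D 3 (0.138 to 0.174). In B cells, which gave most of these UMIs, Cxcl16 stood at 4.22 ± 0.92 and 2.21 ± 1.09 CPM (−0.91 ± 0.31, adjusted p = 0.166). Of the chemokine receptor list 8 of 17 genes tested rose in lymphocytes, beside 8.25% of all genes that rose there, and 2 fell. Within classes 0 of 14 rose in B cells, 4 of 16 in T cells and 0 of 6 in NK cells. Of all genes there 1.52%, 6.47% and 0.235% passed in either direction. Cxcr6, the receptor of CXCL16, rose from 5.09 ± 0.968 to 16.1 ± 4.26 CPM (1.63 ± 0.21, adjusted p = 0.00132), and was picked out after its values were seen. Cxcr3, the CXCL10 receptor, rose from 15.6 ± 1.73 to 39.3 ± 3.71 CPM (1.30 ± 0.089), and the CCL2 receptor gene Ccr2 rose by 1.32 ± 0.096 on the log2 scale. Cx3cr1, the fractalkine receptor, and Cmklr1, the signalling receptor of the chemerin that CCRL2 binds, rose by 1.47 and 1.37, and Cxcr4 fell by 0.47.

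Ccl4 in lymphocytes stood at 36.7, 25.5 and 42.7 CPM in Con and 65.9, 48.3 and 63.5 in T2D, with no overlap, as for 34.5% of all genes in lymphocytes. Its log2 fold change of 0.73 ± 0.23 did not pass (edgeR adjusted p = 0.106; DESeq2 0.0275; without Con 2 0.54 and 0.0432). NK cells, with the highest Ccl4 level and a higher share of T2D than of Con cells, gave 56% to 71% of the lymphocytes' Ccl4 UMIs. Within NK cells Ccl4 was at 1230 ± 460 and 1130 ± 77.5 CPM (−0.13 ± 0.28) and Ccl3 at 1035 ± 280 and 763 ± 178 (−0.44 ± 0.28). In a summed class, more cells of a type and more RNA per cell cannot be told apart. Within T cells Ccl4 stood at 27.7, 18.4 and 21.6 CPM in Con and 49.9, 36.9 and 29.1 in T2D, which did not overlap, as for 26.6% of all genes tested there (0.73 ± 0.28, adjusted p = 0.222). Cxcl10 in T cells went from 0.617 ± 0.772 to 1.89 ± 0.368 CPM, also with no overlap, on 0, 2 and 9 UMIs in Con and 17, 13 and 22 in T2D (1.36 ± 0.57, adjusted p = 0.173). Ccl2 in T cells did not overlap either, at 0.0612 ± 0.106 and 0.631 ± 0.347 CPM. It rested on 0, 1 and 0 UMIs in Con and 4, 9 and 4 in T2D. Members that passed were 0 of 8 tested in B cells, 0 of 7 in T cells and 0 of 5 in NK cells, beside 1.52%, 6.47% and 0.235% of all genes there (unadjusted p under 0.05 for 1675, 2266 and 489 genes). DESeq2 called 0 of the members it gave an adjusted p in each of these classes. Single fits did give calls: in B cells Ccl3 without Con 2 (−0.69, edgeR adjusted p = 0.0486) and Cxcl16 without T2D 1 (−1.43, 0.0226) or the low-count filter (0.0434). In T cells these were Ccl4 without T2D 3 (0.93, 0.00523), the low-count filter (0.00024) or any marker of another list (0.0421), and Cxcl10 without Con 3 (3.03, 0.0372). In NK cells they were Ccl3 without Con 2 (−0.65, 0.0108) and Ccl9 without the low-count filter (0.0111).

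Ccl5, a CC chemokine of effector lymphocytes outside the set, rose in lymphocytes from 653 ± 52.6 to 1749 ± 338 CPM (1.39 ± 0.15, adjusted p = 0.00236), 1 of 6 other chemokine genes tested there. Within classes Ccl5 rose in B cells, from 25.9 ± 4.79 to 56.9 ± 9.41 CPM (1.11 ± 0.16, adjusted p = 0.0227). In T cells it stood at 1357 ± 90.7 and 2861 ± 883 CPM (1.02 ± 0.28, adjusted p = 0.146), and in NK cells at 11328 ± 2194 and 12378 ± 1105 (0.12 ± 0.11, adjusted p = 0.849). The B gate allowed 1 marker of the T and of the NK list, and free RNA was not measured. The part of RNA from T and NK cells in the Ccl5 value of B cells was not tested. Of 14 interferon response genes 7 of 12 tested rose in lymphocytes, with Gbp2 (0.78 ± 0.11) and Ifi44 (0.99 ± 0.17) among them, beside 8.25% of all genes. Within classes 1 of 12 rose in B cells, 2 of 12 in T cells and 0 of 5 in NK cells, where 1.52%, 6.47% and 0.235% of all genes passed in either direction. The count in lymphocytes was 4 of 12 without Con 2 and 3 of 12 without Con 3. In neutrophils and in monocytes 0 of 7 passed, though 2 of 9 rose in neutrophils of the wider gate, 4 of 10 rose in neutrophils without T2D 3, and 1 or 2 without each of the others but Con 1. Cxcl10, itself interferon-induced, stood at 0.812 ± 0.156 and 1.46 ± 0.313 CPM in lymphocytes (0.79 ± 0.31, adjusted p = 0.101). It did not overlap, as for 34.5% of all genes in lymphocytes. Of the NF-kB list 6 of 19 genes tested fell in lymphocytes, beside 7.01% of all genes that fell there, Rel by 0.64 and Nfkbid by 0.71 on the log2 scale, and Tnfaip3 and Nfkbia did not pass. This count was 2 of 20 without T2D 3, 3 of 20 without Con 1 or T2D 2, and 4 to 6 without each of the others. Of the immediate early genes 5 of 14 fell, Junb by 0.70 and Nr4a1 by 1.38, and 2 of 14 without Con 1 or T2D 3. The peptidase gene Dpp4, whose product trims chemokines, rose by 0.17 ± 0.052. Without any one of Con 2, Con 3, T2D 1, T2D 2 or T2D 3, 0 of the 3 genes of its list passed.

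Whether the T2D effect differed between classes was tested in 1 fit over 18 sums. None of the members passed in any of the 3 contrasts, beside 0.482%, 1.11% and 0.182% of all 7684 genes (unadjusted p under 0.05 for 528, 733 and 574 genes). The effect on Ccrl2 was lower in neutrophils than in lymphocytes by 0.94 ± 0.34 on the log2 scale (edgeR adjusted p = 0.335; 0.93 ± 0.24 and 0.0787 in the wider gate). For Ccrl2 the monocyte effect minus the neutrophil effect was 0.38 ± 0.34 (adjusted p = 0.859). No difference of the Ccrl2 effect between neutrophils and another class passed the test. Without Con 3, Ccl4 passed in monocytes minus lymphocytes (−2.03, adjusted p = 0.0249) and in neutrophils minus lymphocytes (−1.57, 0.0149), and Cxcl10 in monocytes minus lymphocytes (−2.89, 0.0147).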

How the data were processed

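Single-cell mRNA of 6 libraries was counted as UMIs at the 3′ end. The deposited counts are whole UMI counts per gene and cell barcode, made by the authors with CASAVA 1.8, UMI-tools and Seurat on mm10, per the submitters' processing notes, which give the names without roles; the aligner, annotation and strand setting were not given in the sources used here. Cells needed 200 or more genes and no more than 20% of UMIs from mitochondrial genes, which left 49025 of 49407 barcodes, and scanpy 1.11.5 marked 1759 doublets (expected rate 0.06, score over 0.2536), which were removed. Cells were gated by marker lists that hold no member. UMIs were summed per library and class, and levels are CPM of that sum. edgeR 4.0.16 (R 4.3.3; filterByExpr, TMM, robust quasi-likelihood) compared 3 Con with 3 T2D libraries over all genes tested, with Benjamini-Hochberg adjustment at 0.05; the SE is the fold change over the root of F, and intervals cover 95%. The scripts were tested on simulated data. Shares of cells were compared after thinning to 500 UMIs with a two-sided exact permutation test. Alternatives were DESeq2 1.42.0, no low-count filter, no scaling factors, other gates, doublets kept, a replicate block and each library left out; the wider gate was added after the data were seen. The members and lists were chosen with earlier results of these data known. All 9 members are named, and of each list and class up to 6 genes that passed, by smallest adjusted p, except 1 gene that is not reported here. Limits given for a count of 0 take 3 UMIs and cover counting error only.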

Additional observations from a re-analysis of the deposited data

How the results depend on the processing

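Over 57 member results, 765 values came from the other tools, filters, scalings, gates, doublet treatment, block and leave-outs. Of these, 722 kept their side of the threshold, 18 no longer passed, 25 newly passed and 0 reversed. In the wider gate and its own alternatives, chosen after the data were seen, 521 of 570 kept their side. There 26 no longer passed, 23 newly passed and 0 reversed. The main fit had called only Ccrl2 in neutrophils, Cxcl16 in lymphocytes, and Ccl2 and Ccrl2 in classical monocytes. Lost calls could come from these results alone, in both counts. Most values that kept their side belong to results that the main fit did not call, so the totals do not measure how stable the calls were. A reversal was counted only where either fit passed. A change of sign between fits that did not pass was counted as kept, as was a missing adjusted p where the main fit did not pass. Counts of all genes called moved more, and the cause was not tested. DESeq2 called 74 genes in neutrophils against 112, 6 in classical monocytes against 24 and 21 in non-classical monocytes against 32. Without the low-count filter 45 were called in monocytes against 22, 15 in classical monocytes, 459 in B cells against 173 and 27 in NK cells against 14. With no marker of any other list, which leaves fewer cells, 1 was called in monocytes, 10 in neutrophils, 0 in non-classical monocytes, 69 in B cells, 315 in T cells against 708 and 3 in NK cells, and classical monocytes could not be fitted. The wider gate gave 52 in classical and 50 in non-classical monocytes, 71 against 37 for monocytes minus lymphocytes and 32 against 14 for monocytes minus neutrophils, where no scaling factors gave 24. With 1 library left out the counts ran from 16 to 34 in monocytes, 60 to 145 in neutrophils, 1059 to 2032 in lymphocytes (1937 with all), 11 to 21 in classical and 12 to 53 in non-classical monocytes, 41 to 234 in B, 302 to 724 in T and 10 to 34 in NK cells. For the differences between classes they ran from 18 to 45, from 39 to 116 (85 with all) and from 8 to 23.

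Replicate numbers are shared by the groups. For each gene the group mean of log2 CPM was taken off, and the deviations left over were correlated between Con and T2D libraries. These values therefore do not measure how alike whole expression profiles are. Deviations of same-numbered libraries correlated at 0.0152, 0.0541 and 0.0443 in monocytes and at −0.0827, 0.0151 and 0.0115 in neutrophils. In lymphocytes they correlated at −0.102, −0.0357 and 0.257. Pairs of unlike number ran from −0.0543 to 0.0157 in monocytes, −0.0726 to 0.0756 in neutrophils and −0.284 to 0.303 in lymphocytes. Whether same-numbered libraries share more than a number cannot be told from so few pairs. With the replicate block 58 genes were called in monocytes, 562 in B cells and 24 in NK cells. With the block Ccl4 in lymphocytes gave 0.74 with edgeR adjusted p = 7.4e-06 and Ccrl2 in monocytes −0.72 with 0.00187. Calls were also gained with it for Cxcl16 in B cells (−0.97, 0.0388), Ccl4 in T cells (0.70, 0.000331) and Ccl3 in NK cells (−0.44, 0.0441).

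Depth limits the strict classical monocytes, of 64734 to 124947 UMIs per library, and neutrophils of Con 3, of 112951 UMIs.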

Other observations

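In the wider gate 69 of the 108 Cxcl10 UMIs in lymphocytes of T2D 3 lay in its NK cells, while the other libraries had 0 or 1 Cxcl10 UMI there. Cxcl10 stood at 4.46 CPM in lymphocytes of that library, against 0.849 to 1.67 CPM in the other 5. In the strict gate, where T2D 3 had 0 Cxcl10 UMIs in NK cells, its lymphocytes stood at 1.63 CPM.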
